A study of Gallus gallus with 6 samples.

Results

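The enzymes and switches that lead from the B cell receptor to Ras were examined as 9 genes of 13009 named on the array: the phospholipases PLCG1 and PLCG2, the Ras exchange factors RASGRP1, RASGRP3, SOS1 and SOS2, the Ras GTPase-activating proteins RASA1 and RASA2, and the GTPase NRAS. They were chosen by name, with earlier results of these data known. Every probe set annotated with 1 of these symbols alone was taken, which gave 34 of the 38439 probe sets tested. The cells were DT40, an established chicken B cell line derived from the bursa of Fabricius of a female bird, which is readily changed by gene targeting. Wild-type cells (3 samples) were compared with Pax5-deficient cells of genotype Pax5-/- (3 samples), in which PAX5 had been targeted with a neomycin and a blasticidin selection construct introduced by electroporation, followed by selection of stable transfectant clones. Both groups grew in the same medium and received no other agent. The wild-type cells are not said to have gone through transfection and selection, so effects of those steps and of the loss of PAX5 cannot be told apart. The labels do not say whether these 3 samples come from 1 clone. The submitters call the samples of each group biological replicates without naming separate cultures, and a p-value here covers only the spread among the samples measured, which may be technical.

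When an antigen binds the B cell receptor, SRC family and SYK kinases and BTK activate phospholipase C gamma, which splits a membrane lipid into inositol trisphosphate and diacylglycerol. Inositol trisphosphate opens calcium channels of the endoplasmic reticulum, while diacylglycerol recruits protein kinases C and the RASGRP exchange factors, which load Ras with GTP. SOS proteins load Ras through the adaptor GRB2 instead, and the RASA proteins return Ras to its GDP-bound state. In DT40 cells PLCG2 is known as the isoform that the receptor needs for its calcium signal, and RASGRP3 as the exchange factor that couples it to Ras.

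Each sample was hybridised to 1 Affymetrix array, and expression is given as the deposited log2 values, on which a difference of 1 is a 2-fold difference. Array medians lay between 3.948 and 4.016, correlations across probe sets were 0.9909 to 0.9959 within the groups and 0.9781 to 0.9807 between them, and the number of arrays limits the precision. A background level was set at the level under which 95% of the array's 687 virus probe sets lay, and was on average 3.83. These sets were picked by their names, and whether any is expressed in these cells was not tested. Differences are Pax5-deficient minus wild type and are followed by their standard error, from 3 samples in each group. PAX5 itself has 4 probe sets. The 1 that passed had values of 4.55, 4.41 and 4.30 in wild-type samples 1 to 3 and of 3.86, 3.55 and 3.34 in Pax5-deficient samples 1 to 3, which is background. Its fall was at least 1.47-fold (limma, Benjamini-Hochberg adjusted p = 0.00483), the brightest PAX5 set had a log2 difference of 0.24 ± 0.09 (adjusted p = 0.136), and where these sets lie relative to the targeted part of the gene is not known here. Of 10 measured B cell markers (12 listed) 7 fell; 10 lay above background in all wild-type and 9 in all Pax5-deficient samples, with a summed log2 level of 92.1 to 93.1 in wild-type and 77.0 to 78.6 in Pax5-deficient samples. Of 9 T lineage markers 2 rose, CD247 by 2.27 and CD8A by 0.52 log2 units, and 1 fell, CD3E by 0.51. The median log2 difference of the 9 was -0.05. The summed levels were 44.0 to 44.7 and 45.5 to 46.7, and CD247 had the largest change in them. Of 8 myeloid markers 1 fell (34.1 to 35.3 and 32.6 to 34.0), of 5 erythroid and thrombocyte markers none passed (20.9 to 21.3 and 21.1 to 21.9; 1 at an unadjusted limma p under 0.05), and of 9 stromal markers 1 rose (37.6 to 38.7 and 38.7 to 40.1). The stromal marker was COL1A2, a collagen chain, higher on 5 of its 8 probe sets and by as much as 4.46 log2 units, while the summed level holds its brightest set with 0.50. Beside these counts, 9.74% of all named genes fell and 6.01% rose by their brightest probe set (limma adjusted p under 0.05). The part of the markers in the results was not tested. CD4, CD28, LYZ, MARCO, TAL1, GP9, LUM, DCN and ACTA2 were at background in all 6 samples. In bulk RNA, fewer cells of a type and less RNA per cell cannot be told apart.

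The 9 genes did not move together. PLCG2 and RASGRP3 fell on every probe set, RASGRP1 and RASA2 fell on 1 probe set each, PLCG1 rose on 1, and SOS1, SOS2, RASA1 and NRAS had no probe set that passed. Of the 34 probe sets, 10 were lower and 1 higher at an adjusted p under 0.05 (limma over all probe sets, two-sided), where 6.7% of all probe sets tested were lower and 3.93% higher, or 10.6% in either direction. The shares over all probe sets include dim ones, which seldom passed. Without probe sets under the median level 4035 passed, beside 4085 with them, so the share among brighter sets is higher. By the brightest probe set of each gene, 4 of 9 genes were lower and 1 higher, beside 9.74% and 6.01% of all named genes (15.8% in either direction). The 1 higher, PLCG1, depends on picking the brightest set over all 6 samples. In wild-type samples alone another PLCG1 set, which did not pass, was slightly brighter (mean 5.83 against 5.82). The groups did not overlap on 13 of the 34 probe sets, 10 lower and 3 higher, beside 27.4% of all probe sets, 12.9% lower and 14.4% higher. Since the genes were chosen with earlier results of these data known, these shares are a description and no test of an excess. Without wild-type sample 2, 7 of the 34 probe sets passed, and leaving out any 1 sample left 2 or 3 of the 9 genes called. The median log2 difference was -0.11 over the 34 probe sets and 0.03 over all probe sets. Of the 34, 26 lay above background in all 6 samples, 5 lay at background in all 6 and 3 in some, and the 11 that passed were among the 26.

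**Figure D1:**
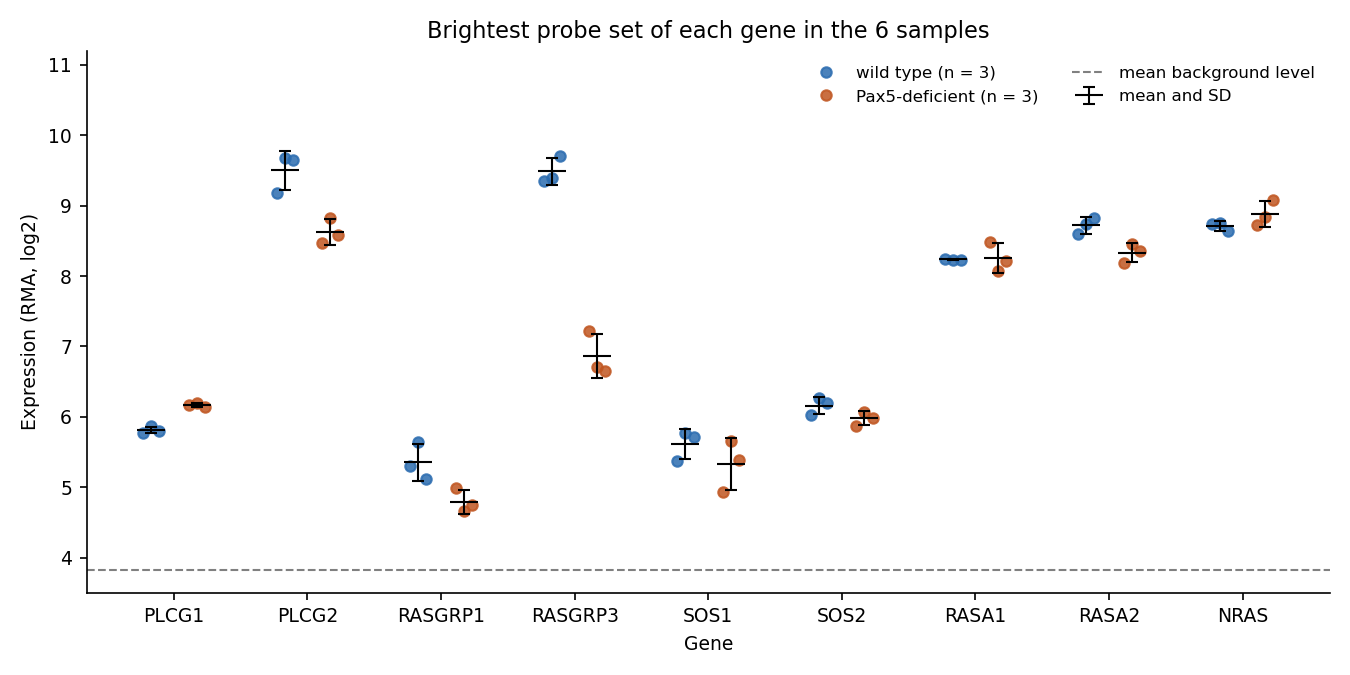
Expression (log2) of the brightest probe set of each of the 9 genes in the 3 wild-type and 3 Pax5-deficient samples, with mean and SD. The groups lie farthest apart for RASGRP3 (9.49 and 6.86), and they overlap for SOS1, SOS2, RASA1 and NRAS; levels of different genes are not comparable on this axis.

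RASGRP3 had the largest change of the 9 genes. This exchange factor binds diacylglycerol and activates Ras, and in DT40 cells it is the one that receptor signals act through. On its brightest probe set the wild-type samples read 9.35, 9.39 and 9.71 and the Pax5-deficient samples 7.22, 6.71 and 6.65. On the other the values were 8.69, 8.55 and 9.07 against 6.21, 6.10 and 6.26. The highest Pax5-deficient value lay more than 2 log2 units under the lowest wild-type value on both, and the remaining signal was well above background. The first fell by 2.63 ± 0.16 log2 units, or 6.19-fold (95% interval of the difference -3.00 to -2.26; limma adjusted p = 2.36e-05). The second fell by 2.58 ± 0.13, or 5.98-fold (95% interval -2.88 to -2.27; limma adjusted p = 8.71e-06). The 2 probe sets gave nearly the same size of change, ranking 86 and 92 among the 38439 probe sets ordered from the largest fall. Both calls held when any 1 sample was left out, at adjusted p up to 0.00042 and 0.000133.

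RASGRP1, the exchange factor best known from T cells, changed less. The brighter of its 2 probe sets had values of 5.31, 5.64 and 5.12 in wild-type samples and 4.99, 4.66 and 4.74 in Pax5-deficient samples, which do not overlap. It fell by 0.56 ± 0.14 log2 units, or 1.47-fold (limma adjusted p = 0.0409). That call was lost without wild-type sample 1 or 2 or Pax5-deficient sample 2 or 3 (adjusted p = 0.0938, 0.130, 0.0936 and 0.123). The other probe set read 4.79, 5.30 and 5.25 against 4.81, 4.60 and 4.60, so that wild-type sample 1 lay below Pax5-deficient sample 1. Its difference of -0.44 ± 0.14 did not pass (adjusted p = 0.0942), but passed without wild-type sample 1 (-0.61, adjusted p = 0.0143).

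PLCG2, the phospholipase C gamma of the B cell receptor pathway, fell on all 6 of its probe sets, and on none did the groups overlap. Across the 6 the log2 difference ranged from -1.37 to -0.88, with a median of -1.08. The brightest read 9.18, 9.67 and 9.65 in wild-type samples and 8.47, 8.82 and 8.58 in Pax5-deficient samples. It had the smallest change of the 6 and fell by 0.88 ± 0.15 log2 units, or 1.84-fold (95% interval -1.22 to -0.53; limma adjusted p = 0.00625).

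The largest PLCG2 change was on the fourth in brightness, with values of 8.42, 8.73 and 8.59 against 7.20, 7.61 and 6.83. That probe set fell by 1.37 ± 0.18 log2 units, or 2.58-fold (limma adjusted p = 0.00158). The fifth fell by 1.23 ± 0.17 (adjusted p = 0.00204). The names of these 2 sets carry the same design number and may share probes, so they are not independent measurements. The second in brightness read 9.21, 9.08 and 8.88 against 7.76, 7.99 and 8.02. It fell by 1.14 ± 0.12, or 2.20-fold, with the smallest adjusted p of the 6 (limma, 0.000381). The sixth and faintest fell by 1.02 ± 0.15 (adjusted p = 0.00265), from 7.32, 7.57 and 7.44 to 6.62, 6.57 and 6.07.

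The Pax5-deficient samples differed among themselves more than the wild-type samples on some PLCG2 probe sets. Sample 3 was the lowest of its group on 4 of the 6 and sample 2 the highest on 4. The 4 with sample 3 lowest carry only 2 design numbers in their names. They may share probes and are not independent measurements. On the third in brightness the wild-type samples read 8.74, 8.81 and 8.89 and the Pax5-deficient samples 7.99, 8.39 and 7.21, with SDs of 0.07 and 0.60. Its difference of -0.95 ± 0.25 (limma adjusted p = 0.0429) became -0.62 without Pax5-deficient sample 3 (adjusted p = 0.0325). The call was lost without wild-type sample 1, 2 or 3 or Pax5-deficient sample 1 (adjusted p = 0.102, 0.135, 0.133 and 0.0792). The other 5 calls held with any 1 sample left out, at adjusted p of 0.0365 or less.

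**Figure D2:**
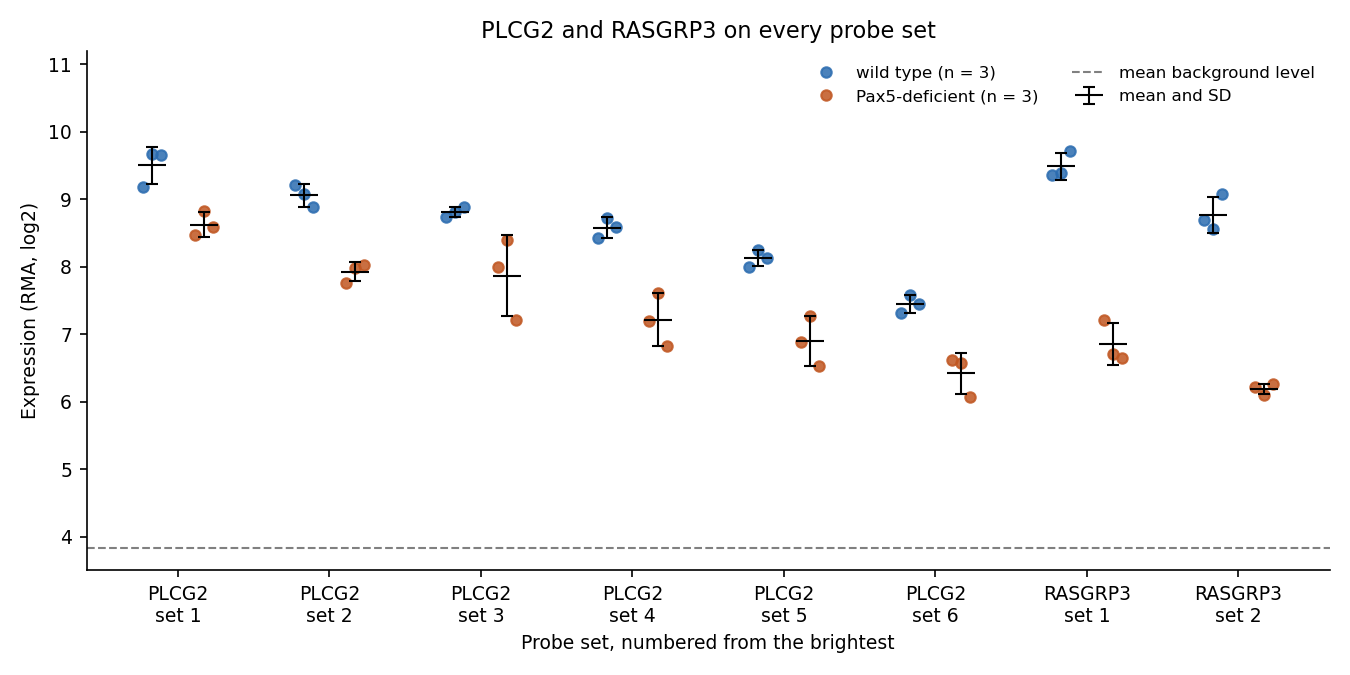
Expression (log2) on all 6 probe sets of PLCG2 and both of RASGRP3, numbered from the brightest, in 3 wild-type and 3 Pax5-deficient samples, with mean and SD. No group overlaps on any of the 8, and PLCG2 set 3 has the widest spread, an SD of 0.60 in the Pax5-deficient samples.

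PLCG1, the isoform of receptor tyrosine kinase and T cell receptor pathways, went the other way by a small amount on its brightest probe set. Wild-type values were 5.78, 5.87 and 5.80 and Pax5-deficient values 6.17, 6.19 and 6.14, with SDs of 0.05 and 0.02. It rose by 0.35 ± 0.08 log2 units, or 1.28-fold (limma adjusted p = 0.0242). The call was lost when any 1 of the 6 samples was left out (adjusted p = 0.0511 to 0.0866), although the size stayed between 0.33 and 0.38, and with a variance trend in the fit (adjusted p = 0.0910). The name of this probe set ends in the suffix that Affymetrix gives to sets with probes that may also match other sequences. Of the other 4 sets, 3 had differences of 0.16 ± 0.08, 0.26 ± 0.17 and 0.22 ± 0.10, which did not pass (adjusted p = 0.307, 0.429 and 0.219), and 1 lay at background. The groups did not overlap on 3 of the 5 sets, and all 3 were higher in Pax5-deficient cells, as were 14.4% of all probe sets. The names of the first and second in brightness, both among these 3, start with the same design number. They may share probes and are not independent measurements.

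SOS1 and SOS2, which load Ras downstream of GRB2, had no probe set that passed in limma, and none of the 8 had an unadjusted p under 0.05. The brightest SOS1 set read 5.38, 5.76 and 5.72 in wild-type and 4.94, 5.66 and 5.38 in Pax5-deficient samples, and the groups overlap. Its difference was -0.29 ± 0.18 (95% interval -0.71 to 0.12; adjusted p = 0.414), so a change to -0.71 lies within the interval. Pax5-deficient sample 1 was the lowest of its group on all 4 SOS1 sets. The names of these sets carry the same design number, so they may share probes. The faintest lay at background in every sample, and the third was above background in only 2 Pax5-deficient samples. The brightest SOS2 set read 6.02, 6.27 and 6.19 against 5.88, 6.08 and 5.99, a difference of -0.18 ± 0.10 (95% interval -0.41 to 0.05; adjusted p = 0.349). The remaining SOS1 sets had differences from -0.31 to -0.01. Those of SOS2 had differences from -0.23 to 0.28, and each of the 3 was at background in at least 1 sample.

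RASA1, the prototype Ras GTPase-activating protein, had the smallest difference of the 9 genes on its brightest set. That set read 8.25, 8.23 and 8.23 in wild-type and 8.49, 8.06 and 8.22 in Pax5-deficient samples. The difference was 0.02 ± 0.11 with a 95% interval of -0.24 to 0.28 (limma adjusted p = 0.951), and all 5 sets had differences between 0.02 and 0.12. None of the 5 passed, also not at an unadjusted p under 0.05. RASA2, a related protein, had values of 8.59, 8.74 and 8.83 against 8.19, 8.45 and 8.36 on its brightest set, with no overlap. It fell by 0.39 ± 0.10 log2 units, or 1.31-fold (adjusted p = 0.0485), just inside the threshold. The call was lost without wild-type sample 1, 2 or 3 (adjusted p = 0.0535, 0.155 and 0.168) and without Pax5-deficient sample 1 or 3 (0.124 and 0.108). The second RASA2 set differed by -0.36 ± 0.15 (adjusted p = 0.197; -0.52 and 0.0494 without wild-type sample 3) and the third by -0.01 ± 0.11 (adjusted p = 0.973).

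NRAS, a Ras GTPase on which the exchange factors and the RASA proteins act, read 8.74, 8.76 and 8.63 in wild-type and 8.73, 8.83 and 9.08 in Pax5-deficient samples on its brightest set. The groups overlap, and the difference of 0.17 ± 0.11 did not pass (95% interval -0.08 to 0.41; limma adjusted p = 0.431). None of its 3 sets passed, also not at an unadjusted p under 0.05, and the faintest lay at background in every sample.

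**Figure D3:**
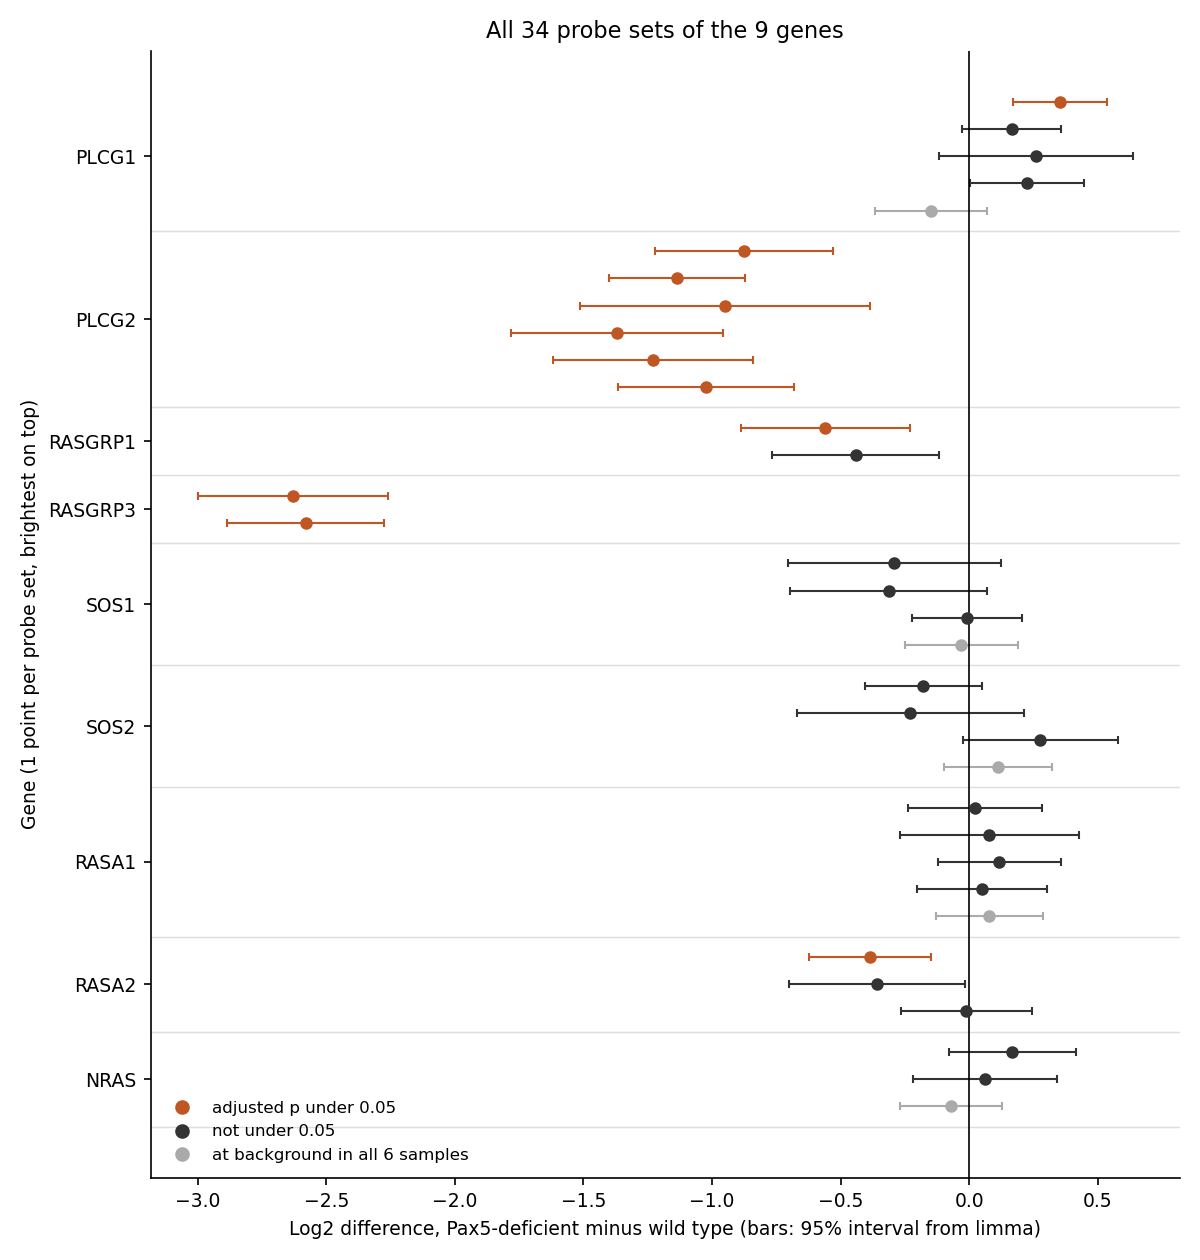
Log2 difference (Pax5-deficient minus wild type) with its 95% interval for all 34 probe sets, grouped by gene with the brightest on top. The 10 sets that fell belong to PLCG2, RASGRP1, RASGRP3 and RASA2, and the 1 that rose is the brightest of PLCG1.

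Within each sample, related genes were also set against each other on their brightest probe sets. The log2 ratio of PLCG2 to PLCG1 was 3.40 to 3.85 in wild-type and 2.30 to 2.63 in Pax5-deficient samples, a change of -1.23. That of RASGRP3 to RASGRP1 was 3.75 to 4.59 and 1.91 to 2.23, a change of -2.07. Neither overlapped between the groups, and an exact two-sided permutation test gave p = 0.1 for each (adjusted p = 0.2 over 4 pairs), the smallest that 3 samples against 3 allow. The ratio of RASA2 to RASA1 changed by -0.41 (exact permutation p = 0.2, adjusted p = 0.267) and that of SOS1 to SOS2 by -0.11 (exact permutation p = 0.7, adjusted p = 0.7). The ratios compare changes, not amounts, since probes differ in brightness.

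The genes around these 9 in the pathway were taken from 11 lists with 99 entries, of which 76 were measured. These lists were also chosen with earlier results of these data known, so their shares are a description and no test. By the brightest probe set 21 were lower, 2 higher and 53 did not pass, or 27.6% lower and 2.63% higher, where 9.74% and 6.01% of all named genes were. Their median log2 difference was -0.04, beside 0.03 over all genes. The calls fell mostly in 2 lists, the genes close to the receptor and the protein kinases C and D.

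Upstream, 8 of 12 measured genes that act close to the B cell receptor were lower, none higher and 4 did not pass, with a median of -0.90. The list holds activators and also the negative regulators CBL, CBLB and INPP5D. Of these CBLB was among the 8 (-0.93 ± 0.12, limma adjusted p = 0.00148), and was lower on 1 of its 3 probe sets. INPP5D did not pass on its brightest set (0.24 ± 0.15), but 1 of its 2 sets was higher, by 0.63. Both were named with their values known. CD79B, BTK, SYK and BLNK are also in the list of B cell markers, and all but SYK fell. The probe set counted as BLNK in both lists carries the symbol SH2D6 and was matched by a synonym only. The 2 counts of falls therefore share genes and are not separate results. CD79B, a signalling chain of the receptor, read 11.63, 11.58 and 11.33 against 9.34, 9.07 and 9.26, and fell by 2.29 ± 0.11 log2 units (limma adjusted p = 6.30e-06). The kinase LYN, which phosphorylates that chain, read 10.80, 10.87 and 10.80 against 9.12, 9.32 and 8.94. BTK, the kinase that phosphorylates PLCG2, read 10.23, 10.35 and 10.28 against 9.36, 9.36 and 9.52. All 3 lay apart between the groups with no overlap, and LYN and BTK fell 3.24-fold and 1.83-fold.

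Of 10 measured protein kinases C and D, most of which bind diacylglycerol as the RASGRP proteins do, 6 were lower, 1 higher and 3 did not pass, with a median of -0.61. The atypical PRKCI and PRKCZ, which do not bind diacylglycerol, were among the 3. Of the 6, PRKCA was lower on 1 of its 7 probe sets and PRKCE on 1 of its 3. On that PRKCE set all Pax5-deficient samples were at background, and the fall was at least 1.08-fold. PRKCD read 7.55, 7.93 and 7.85 in wild-type samples and 4.04, 3.66 and 3.90 in Pax5-deficient samples, where 1 of 3 was at background. It fell by 3.91 ± 0.13 log2 units (limma adjusted p = 6.63e-07), the largest fall among the 76 genes. PRKD1 fell by 2.24 ± 0.23 and PRKD3 by 1.01 ± 0.13 (adjusted p = 0.000359 and 0.00147), the first on 1 of its 2 probe sets and the second on both. PRKCB, the main protein kinase C of B cells, fell by 1.14 ± 0.21 (adjusted p = 0.00775) and on 4 of its 5 sets. PRKCQ, the isoform known from T cells, rose from 4.42, 4.29 and 3.98 to 5.27, 5.02 and 5.84, by 1.15 ± 0.20 (adjusted p = 0.00686). Its other set lay at background in all 6 samples, so no change is read from it. PRKCA, PRKCB, PRKCE and PRKCQ were picked for naming with their values known.

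The other product of the phospholipases acts on inositol trisphosphate receptors, of which 1 of 3 was lower. ITPR2 fell by 0.63 ± 0.10 log2 units (limma adjusted p = 0.00505), and ITPR1 and ITPR3 had differences of -0.32 ± 0.13 and -0.31 ± 0.13 (adjusted p = 0.195 and 0.196), with ITPR3 above background in 1 of 3 Pax5-deficient samples. Without Pax5-deficient sample 2 that ITPR1 difference was -0.47 and passed (adjusted p = 0.0232). The other ITPR1 probe sets went the other way, by 0.29, 0.05 and 0.24, and did not pass (limma adjusted p = 0.0933, 0.837 and 0.403). None of 9 measured diacylglycerol kinases, which remove diacylglycerol, passed in limma (2 at an unadjusted p under 0.05). Their 3 smallest adjusted p were those of DGKH, DGKE (0.36 ± 0.14) and DGKG. DGKH lay at background in the 3 Pax5-deficient samples, DGKE in 3 of the 6 samples, and DGKG in all 6. Of 11 measured other phospholipases C, 1 was lower and 10 did not pass. That was PLCH1, with 5.78, 6.48 and 5.74 against 4.44, 4.31 and 3.99, which fell by 1.75 ± 0.20 (adjusted p = 0.00071); 4 of its 7 probe sets were lower. PLCL1 and PLCH2, next by adjusted p, were at background in both groups.

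Among other Ras regulators, RASGRF1 was the measured exchange factor, and its difference of 0.33 ± 0.13 did not pass (limma adjusted p = 0.162). None of 4 other GTPase-activating proteins passed on its brightest probe set (2 at an unadjusted p under 0.05). NF1, a large protein of that class, had a difference of -0.39 ± 0.12 on that set (adjusted p = 0.0714). Without Pax5-deficient sample 1 it was -0.48 and passed (adjusted p = 0.0484). On 2 of its 6 sets NF1 passed, with differences of -0.58 and -0.90. In wild-type samples alone the first of these was slightly brighter than the set counted (mean 7.80 against 7.78). The NF1 count thus depends on picking the brightest set over all 6 samples. RASAL1 and DAB2IP had differences of -0.55 ± 0.17 and 0.15 ± 0.10 (adjusted p = 0.0763 and 0.482). The RASAL1 difference was -0.76 and passed without wild-type sample 1 (adjusted p = 0.0036). Of 3 measured Ras family GTPases besides NRAS, HRAS fell by 0.65 ± 0.11 and RRAS by 0.61 ± 0.08 (adjusted p = 0.00444 and 0.0018), and MRAS was at background in both groups.

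Of 10 measured adaptors 2 were lower, 1 higher and 7 did not pass. SHC4 fell by 1.36 ± 0.13 and SHOC2, a scaffold of Ras and RAF signalling, by 0.58 ± 0.08 (limma adjusted p = 0.000252 and 0.00215). GAB3, a docking protein, rose by 0.70 ± 0.14 on 1 of its 2 probe sets (adjusted p = 0.0117, and 0.0579 without wild-type sample 2). The other GAB3 set differed by 0.19 ± 0.10 and did not pass (adjusted p = 0.294). GRB2, the adaptor that binds the SOS proteins, had a difference of 0.06 ± 0.09 (adjusted p = 0.773), and was picked for naming besides the rule. Of 4 measured RAF, MEK and ERK kinases and scaffolds, the scaffold KSR1 fell by 1.02 ± 0.11 (adjusted p = 0.000571), and was lower on 3 of its 7 probe sets. MAP2K1 and BRAF had differences of 0.43 ± 0.20 and -0.21 ± 0.15 (adjusted p = 0.25 and 0.486). None of 9 measured feedback inhibitors passed (2 at an unadjusted p under 0.05). DUSP5, DUSP4 and SPRY3 had differences of 0.46 ± 0.13, -0.57 ± 0.16 and 0.17 ± 0.11 (adjusted p = 0.0512, 0.0634 and 0.448). DUSP5 and DUSP4 passed without dim probe sets (adjusted p = 0.0413 and 0.0465) and with a variance trend (0.0423 and 0.0476). They also passed without Pax5-deficient sample 2 (0.0146) and wild-type sample 3 (0.0120), respectively.

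**Figure D4:**
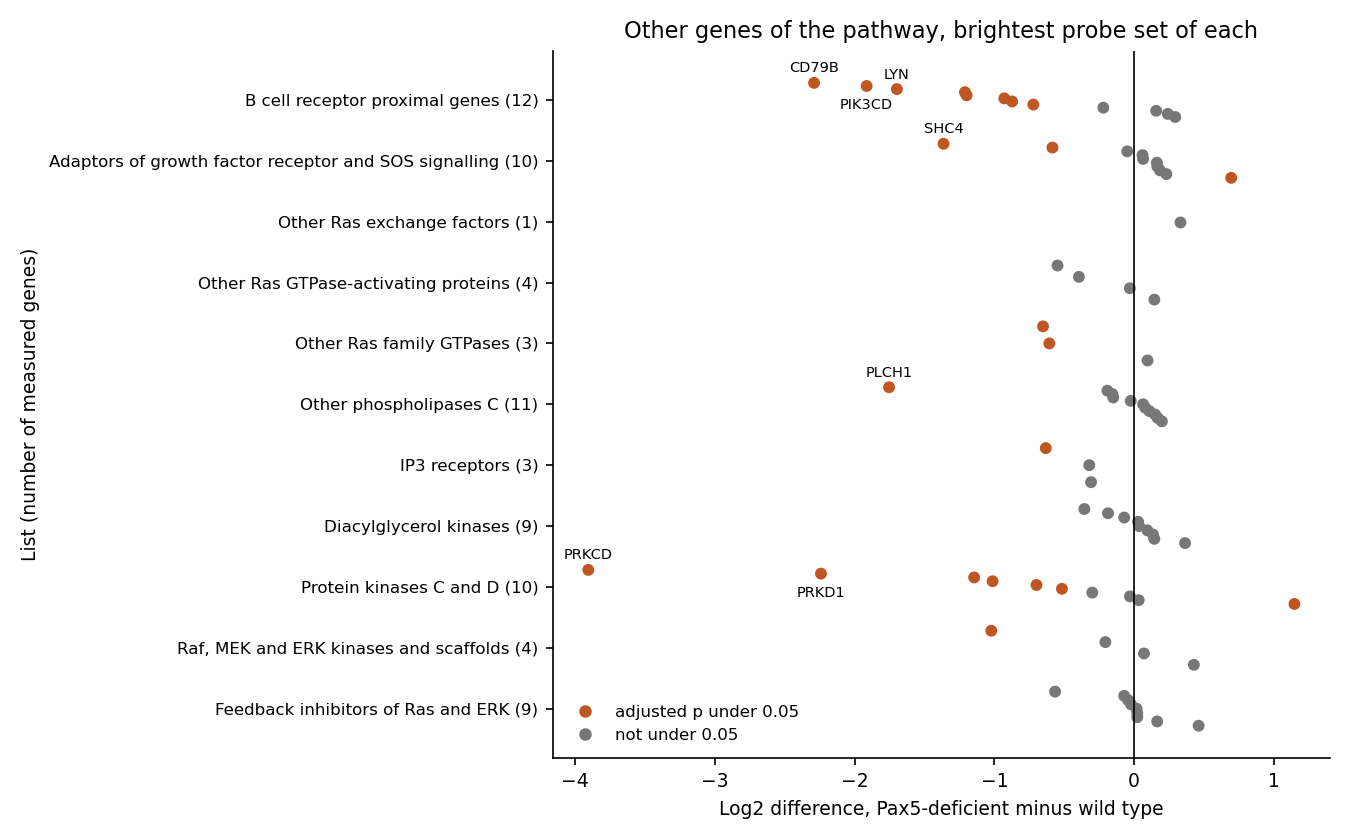
Log2 difference (Pax5-deficient minus wild type) of the 76 measured genes of 11 pathway lists, by the brightest probe set of each gene, with those past an adjusted p of 0.05 in orange. Of the 76, 21 lie to the left and 2 to the right among those that passed, and PRKCD lies farthest left at -3.91.

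The genes with the most similar pattern over the 6 samples were found by Pearson correlation with the brightest probe set of each member that passed. For RASGRP3 they were CENPP, ADAMTS1 and TA3 (r = 0.9995, 0.9987 and 0.9980), and for PLCG2 they were RFESD, SCRN3 and ERBIN (0.9996, 0.9983 and 0.9960). For RASGRP1 they were MGST1, TMEM45L and TAMM41 (0.9949, 0.9916 and 0.9888), none of which passed in limma (adjusted p = 0.0955, 0.246 and 0.229). For RASA2 they were RAD51C, ZNF236 and MAT2B (0.9978, 0.9977 and 0.9961), and for PLCG1 they were PDCD10, TEX10 and ACTL6A (0.9976, 0.9967 and 0.9956). With 6 samples in 2 groups these values follow mostly the difference between the groups, and they are the highest over all named genes, so they are given as a description only.

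**Figure D5:**
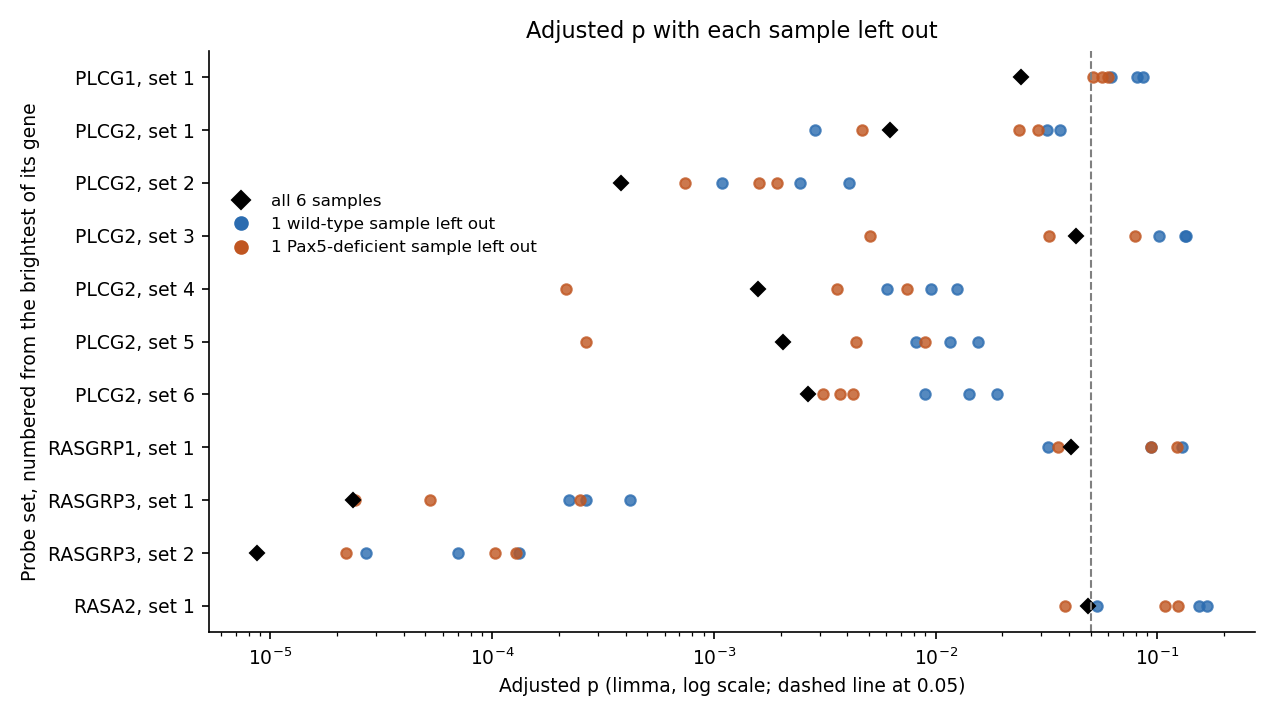
Adjusted p (limma, log scale) of the 11 probe sets that passed, with all 6 samples and with each sample left out, and a dashed line at 0.05. For 7 of the 11, both of RASGRP3 and 5 of PLCG2, all points lie left of the line; PLCG1 has all 6 left-out points to its right.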

How the data were processed

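The authors deposited log2 values from RMA, named in the submitters' processing notes; its version and the probe set definition are not stated there. RMA shrinks differences of dim probes, so their changes are understated. The table held 38535 probe sets and 0 missing values; 96 array controls were left out. Symbols came from the platform annotation (27168 probe sets with 1 symbol, 177 with several, 11094 with none here), and updating them to RefSeq GRCg7b changed 0. Lists were matched by symbol, and BLNK as SH2D6 by a synonym. Samples were grouped by title.

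Each probe set was fitted with limma 3.58.1 in R 4.3.3 (group as the only term, eBayes, two-sided), with Benjamini-Hochberg adjustment over 38439 probe sets and a threshold of 0.05. SEs are moderated. This procedure was also run on simulated data, and the outcome is not given here. For counts of genes, the brightest probe set (highest mean over all samples) stands for the gene. A group with all 3 samples at or under background gives a fold as a bound. Genes named from each pathway list are the 3 with the smallest adjusted p, or all where fewer than 4 were measured. GRB2, PRKCA, PRKCB, PRKCE, PRKCQ, single cell type markers and members whose role differs from their list were named besides, with their values known. The background level was also set after seeing the data. Alternatives were quantile normalization, no dim probe sets, a variance trend, a replicate block, a change tested against 0.5, gene means and leaving out each sample. The members and lists were chosen with earlier results of these data known. Sequences are not shown here.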

Additional observations from a re-analysis of the deposited data

How the results depend on the processing

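No called probe set of the 9 genes changed direction under any alternative. Tested against a change of 0.5 on the log2 scale, 4 probe sets passed, all 4 lower (2 of RASGRP3, 2 of PLCG2) and 0 higher, with 1 gene by its brightest set, 780 of all probe sets, 0 of PAX5, and 8 pathway genes lower and 0 higher; this test asks for more than a change from 0. With a variance trend 0 of the 9 genes' sets were higher (PLCG1, adjusted p = 0.091). With the mean of a gene's sets 3 genes passed (PLCG2, RASGRP1 and RASGRP3). Leaving out 1 sample, 7 to 9 of the sets passed, 7 to 9 lower and 0 to 0 higher, 2 to 3 of the genes (2 without wild-type sample 1 or 2 or Pax5-deficient sample 3), 2490 to 4172 of all probe sets (lowest without wild-type sample 2) and 1 to 3 higher pathway genes (1 without wild-type sample 2); fewer samples enter these fits.

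Signs turned only where differences lay near 0 and did not pass, and the cause was not tested. Leaving out 1 sample gave -0.23 to 0.032 for the change of the SOS1 to SOS2 ratio. It gave -0.067 to 0.047 and -0.11 to 0.026 for 2 sets of SOS1, and -0.10 to 0.12, -0.061 to 0.26 and -0.011 to 0.13 for 3 of RASA1. For the faintest RASA2 set it gave -0.080 to 0.092, for 1 NRAS set -0.054 to 0.13, for 1 PAX5 set at background -0.020 to 0.023 and for MRAS -0.022 to 0.18. After quantile normalization the same RASA2 and PAX5 sets gave 0.064 and -0.0098.

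With the replicate number as a block, 10 of the 34 sets passed, 9 lower and 1 higher, and RASGRP1 did not (adjusted p = 0.0517). Of the named pathway genes RASAL1, DUSP5 and DUSP4 passed (0.0439, 0.0411 and 0.0347). Deviations of same-numbered samples correlated at 0.11, 0.07 and -0.02, and those of differently numbered samples at -0.11 to 0.05. With 3 samples in each group these values cannot settle whether the numbers pair the samples. Signal over background limits the 5 sets at background, for which no change can be read.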
